A study of Mus musculus with 72 samples.

Results

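Histone messages were followed in the hippocampus of mice that had learned to fear a context, through the 105 probe sets, of 35556 on the array, whose annotated gene symbols are all histone genes of the H1, H2A, H2B, H3 or H4 families. A probe set is a group of short probes that reports 1 value per array, and these 105 represent 90 genes. They were chosen by name and not by their values, and a probe set that names several histone genes was kept. A gene counted as replication-dependent where it carries an H1f1 to H1f6, H2ac, H2bc, H2bu, H2aw, H3c, H4c or H4f name, and as a variant otherwise. This gave 72 replication-dependent probe sets for 68 genes and 33 variant probe sets for 22 genes.

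Whole hippocampi came from male C57BL/6J mice of 2 months, an inbred strain, kept on 12 h of light and 12 h of dark, with 1 array for each mouse and 9 mice in each of 8 groups. By the study's account the 9 mice of a group came from 9 separate experiments, and the labels do not say which mouse belongs to which. In contextual fear conditioning, 3 h after lights on, a mouse received 1 foot shock of 2 s at 1.5 mA in a new chamber, and groups of trained mice are named by the time from training to collection: FC30 for 30 min, FC4 for 4 h, FC12 for 12 h, and FC24 for 24 h. Retrieval mice (RT30) were put back in the chamber for 5 min at 24 h and collected 30 min later. Controls that were handled but not trained were collected at the clock times of the 30 min, 4 h and 12 h groups (CC30, CC4 and CC12). CC12 and FC12 were collected in the dark, 15 h after lights on, and the other 6 groups in the light, between 3 and 7 h after lights on. FC24 had no control of its own and was set against CC30, collected at nearly the same clock time, so that FC30, RT30 and FC24 share the CC30 mice. Values are log2 signals from which the first principal component of the whole array, 17.39% of the variance of probe-centred values here, was subtracted, and a difference of groups is a difference of mean log2 values. The study also removed a first component, but after standardising values in a way not fully described, and whether it is the one removed here was not settled. The tissue label was borne out by its markers, since Prox1 of dentate granule cells and Wfs1 of CA1 neurons were brighter than 91.3% and 93.4% of probe sets, and 11 of 12 activity-induced genes were higher in FC30 than in CC30 mice. Of the arrays, 6 stood apart from their group on 1 of the first 2 principal components, and counts without them are given where they differ.

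Histones package DNA: pairs of H2A, H2B, H3 and H4 form the nucleosome core, and linker histone H1 binds the DNA where it enters and leaves. Replication-dependent histone genes lie in clusters, are transcribed mainly while DNA is copied, and most make messages that end in a stem-loop in place of a poly(A) tail. Variant histones such as H3.3 and H2A.Z lie alone in the genome, make polyadenylated messages and are used by cells that no longer divide, which holds for nearly all hippocampal neurons. Some replication-dependent genes also give polyadenylated messages in such cells, and several variants are known from the testis.

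Of the 72 replication-dependent probe sets, 55 lay wholly in cluster 1 on chromosome 13, 9 in cluster 2 on chromosome 3, 3 in cluster 3 on chromosome 11 and 1 in cluster 4 on chromosome 6, while 4 mixed clusters. By family there were 5 for H1, 20 for H2A, 19 for H2B, 13 for H3 and 13 for H4, and 2 mixed families. Members of a family are nearly identical in sequence, so 39 of the 72 named several genes, up to 11. The signal of one gene could not be told from that of its copies there, and such probe sets are not separate observations. The 33 variant probe sets held 11 for 7 genes used outside the germ line (H1f10, H2aj, H2ax, H2az1, H2az2, H3f3a and H3f3b) and 22 for genes known from the germ line. With H1f6, H2ac1 and H2bc1, which are replication-dependent by name but known from the testis, the germ-line genes had 25 probe sets. The 105 probe sets carried 99 distinct sets of values, because 11 of them fell into 5 sets with identical values on every array.

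The regulatory sequences of 6 genes on which the results below turn are printed here, 200 bases up to the base before the transcription start, read on the strand of the gene from RefSeq (GRCm38.p6). H1f2 is at chr13:23738607-23738806 on the plus strand, H3f3b at chr11:116024505-116024704 on the minus strand, H2ac21 at chr3:96219685-96219884 on the plus strand, H2bc3 at chr13:23746534-23746733 on the plus strand, H2ac4 at chr13:23750888-23751087 on the plus strand, and H3c4 at chr13:23575563-23575762 on the plus strand. Capitals mark the octamer ATTTGCAT, the CCAAT box and TATAAA, on either strand.
H1f2: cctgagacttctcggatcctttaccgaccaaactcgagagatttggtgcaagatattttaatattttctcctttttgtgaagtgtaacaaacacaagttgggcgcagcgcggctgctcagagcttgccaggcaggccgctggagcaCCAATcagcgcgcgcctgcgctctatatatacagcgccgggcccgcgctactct
H3f3b: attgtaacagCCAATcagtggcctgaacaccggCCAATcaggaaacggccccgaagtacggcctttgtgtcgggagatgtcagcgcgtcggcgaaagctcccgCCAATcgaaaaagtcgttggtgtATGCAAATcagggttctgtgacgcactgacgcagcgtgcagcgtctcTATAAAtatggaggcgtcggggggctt
H2ac21: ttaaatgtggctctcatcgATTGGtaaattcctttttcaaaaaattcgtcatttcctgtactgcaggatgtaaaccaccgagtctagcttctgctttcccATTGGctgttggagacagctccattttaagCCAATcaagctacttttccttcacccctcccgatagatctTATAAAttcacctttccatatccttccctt
H2bc3: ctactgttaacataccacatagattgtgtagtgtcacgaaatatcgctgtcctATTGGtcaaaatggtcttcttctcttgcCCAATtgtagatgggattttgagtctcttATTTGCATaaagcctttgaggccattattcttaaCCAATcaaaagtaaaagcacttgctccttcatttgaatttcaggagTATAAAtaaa
H2ac4: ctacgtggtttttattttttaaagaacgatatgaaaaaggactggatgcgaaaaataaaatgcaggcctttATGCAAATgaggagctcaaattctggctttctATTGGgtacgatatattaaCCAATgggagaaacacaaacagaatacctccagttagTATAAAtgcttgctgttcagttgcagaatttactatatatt
H3c4: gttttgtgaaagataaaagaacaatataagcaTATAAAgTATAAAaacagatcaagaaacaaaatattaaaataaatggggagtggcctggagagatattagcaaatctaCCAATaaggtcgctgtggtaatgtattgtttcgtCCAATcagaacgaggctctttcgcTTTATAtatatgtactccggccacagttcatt

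The octamer, a known site of histone H2B promoters, was found on either strand in 7 of 17 H2B promoters (41.2%) and in 7 of 18 H2A promoters (38.9%), against 453 of all 32851 promoters (1.38%). Neighbouring H2A and H2B genes can share the stretch between them, which then counted for both. No replication-dependent H1, H3 or H4 promoter held these letters in the window, whereas H3f3b was the single variant gene of 21 that did. CCAAT or its complement was in 52 of 63 replication-dependent promoters (82.5%), among them all 18 of H2A, all 17 of H2B and all 6 of H1, but in 3 of 12 of H4, against 29.3% of all promoters. TATAAA or its complement was in 26 of the 63 (41.3%) against 9.96% of all promoters. A promoter was matched for 83 of the 90 genes, 62 of them replication-dependent, and 1 gene whose promoter has 2 entries was counted in both among the 63. A match of letters is a description of the sequence and not evidence of binding.

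The 8 groups were first asked whether they differed at all, with limma's moderated F-test over the 72 arrays and Benjamini-Hochberg adjustment over all 35556 probe sets. Here and throughout, a probe set was called where this adjusted p was under 0.1. Histone messages stood at 28 of 105 called (26.7%), where 10.1% of all probe sets were called, and these 28 held 27 distinct sets of values. The calls were not spread evenly over the families: 18 of 20 H2A probe sets were called, but 3 of 19 for H2B, 1 of 13 for H3, 1 of 5 for H1 and 0 of 13 for H4, with both mixed probe sets called. In total 25 of the 72 replication-dependent probe sets were called. The 11 variant probe sets outside the germ line gave 3 calls (H3f3b, H2aj and H2ax), and the 25 germ-line probe sets gave 0, with 2 at an unadjusted p under 0.05. The 18 H2A calls are not 18 independent genes, since 13 of these probe sets name several copies of H2ac12 or of H2ac18.

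The smallest adjusted p values of the F-test belonged to H1f2 (2.42e-09), which encodes linker histone H1.2, to H3f3b (9.23e-08), which encodes the variant H3.3, and to a probe set shared by H1f4 and H2bc6 (4.14e-05), an H1 gene and its H2B neighbour. H2aw (0.000382), the H2A gene of cluster 3, and H3c4 (0.000978), an H3 gene of cluster 1, followed. H2ac21, the H2A gene of cluster 2 formerly called Hist2h2ab, had an adjusted p of 0.00602. It is not H2ab1, a germ-line variant with a similar name. In bulk tissue, fewer cells of a type and less RNA per cell cannot be told apart.

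**Figure D1:**
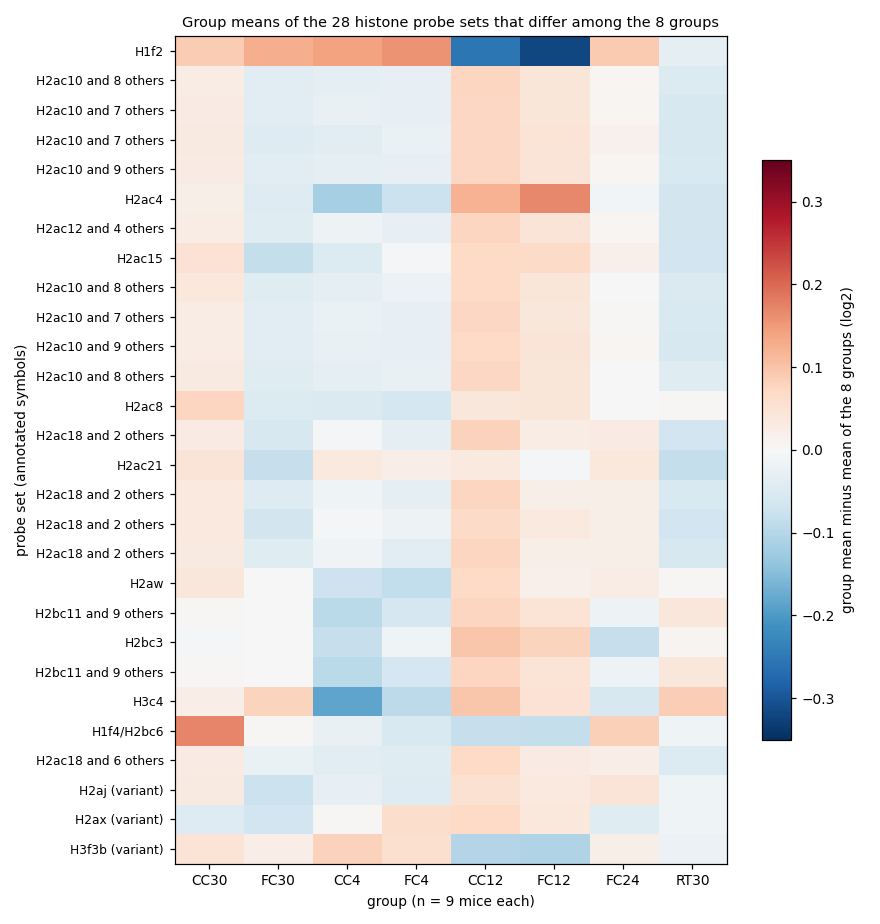
Group mean minus the mean of the 8 groups (log2, colour scale) for the 28 histone probe sets called by the F-test, by group (n = 9 mice each). H1f2 and the variant H3f3b are lowest in CC12 and FC12, whereas most H2A probe sets are highest in CC12 and lowest in FC30 and RT30.

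In both dark groups the mean of H1f2 lay below that of every light group. The lowest, median and highest log2 values were 7.27, 7.41 and 7.71 in CC12 mice and 7.27, 7.37 and 7.49 in FC12 mice. In the light they were 7.57, 7.79 and 8.01 in CC30, 7.66, 7.80 and 8.04 in FC30, 7.67, 7.80 and 8.12 in CC4, 7.58, 7.92 and 7.95 in FC4, 7.54, 7.78 and 8.15 in FC24, and 7.43, 7.70 and 7.85 in RT30. All 9 FC12 mice were below all FC4 and all FC24 mice, while CC12 overlapped its controls through its highest mice. The difference was -0.34 (SE 0.068) for CC12 against CC30, with an adjusted p of 0.0107 in limma, and -0.40 (SE 0.068) against CC4, with an adjusted p of 0.00235. Among trained mice it was -0.41 (SE 0.068) for FC12 against FC24, with an adjusted p of 0.0029, and -0.48 (SE 0.051) against FC4, with an adjusted p of 0.000102. H1f2 thus fell in all 4 comparisons of a dark group with a light group, and in each of them all 9 dark-phase mice were below the mean of the light-phase group. Local false discovery rates were also computed here, and with them the call held against CC4 but not against CC30 (0.502). Nor did it hold for FC12 against FC24 (0.185) or FC4 (0.326). Over all 35556 probe sets these rates called 80 in CC12 against CC30 and 0 in FC12 against FC4. The study also used local false discovery rates, and it reports many more probe sets for the first of these comparisons. Its rates were not reproduced here, so how they would call H1f2 was not tested.

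H3f3b followed the same order with a smaller difference. CC12 values ran from 10.29 through a median of 10.36 to 10.46 and FC12 values from 10.26 through 10.38 to 10.44, against 10.44, 10.53 and 10.59 in CC30, 10.47, 10.53 and 10.63 in CC4, 10.46, 10.52 and 10.58 in FC4 and 10.44, 10.45 and 10.57 in FC24. Neither CC12 and CC4 nor FC12 and FC4 overlapped. H3f3b, 1 of the pair of genes for H3.3, the H3 that is laid down outside replication, fell by 0.15 against CC30 (SE 0.031, adjusted p 0.0114), by 0.18 against CC4 (SE 0.030, adjusted p 0.00171), by 0.12 against FC24 (SE 0.029, adjusted p 0.0298) and by 0.16 against FC4 (SE 0.027, adjusted p 0.00288), all by limma. With local false discovery rates the call held in CC12 against CC4 alone, and the rates were 0.320 against CC30, 0.379 for FC12 against FC24 and 0.349 for FC12 against FC4. The 4 probe sets of H3f3a, which encodes the same protein, were called in none of these comparisons. Their differences lay between -0.06 and 0.01.

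The probe set of H1f4 and H2bc6 differed by the reference used. Its lowest, median and highest values were 6.73, 6.90 and 7.13 in CC12, 6.95, 7.16 and 7.29 in CC30 and 6.85, 6.91 and 7.18 in CC4, and 6.74, 6.93 and 6.97 in FC12, 6.97, 7.07 and 7.13 in FC24 and 6.78, 6.93 and 7.07 in FC4. It fell by 0.25 in CC12 against CC30 (SE 0.051, adjusted p 0.0129, limma) and by 0.17 in FC12 against FC24 (SE 0.036, adjusted p 0.019). Against the 4 h groups it was -0.06 and -0.03, neither called, so CC30 and FC24 were the high groups. H1f4 and H2bc6 cannot be separated here, and neither call held with local false discovery rates (0.507 and 0.365).

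**Figure D2:**
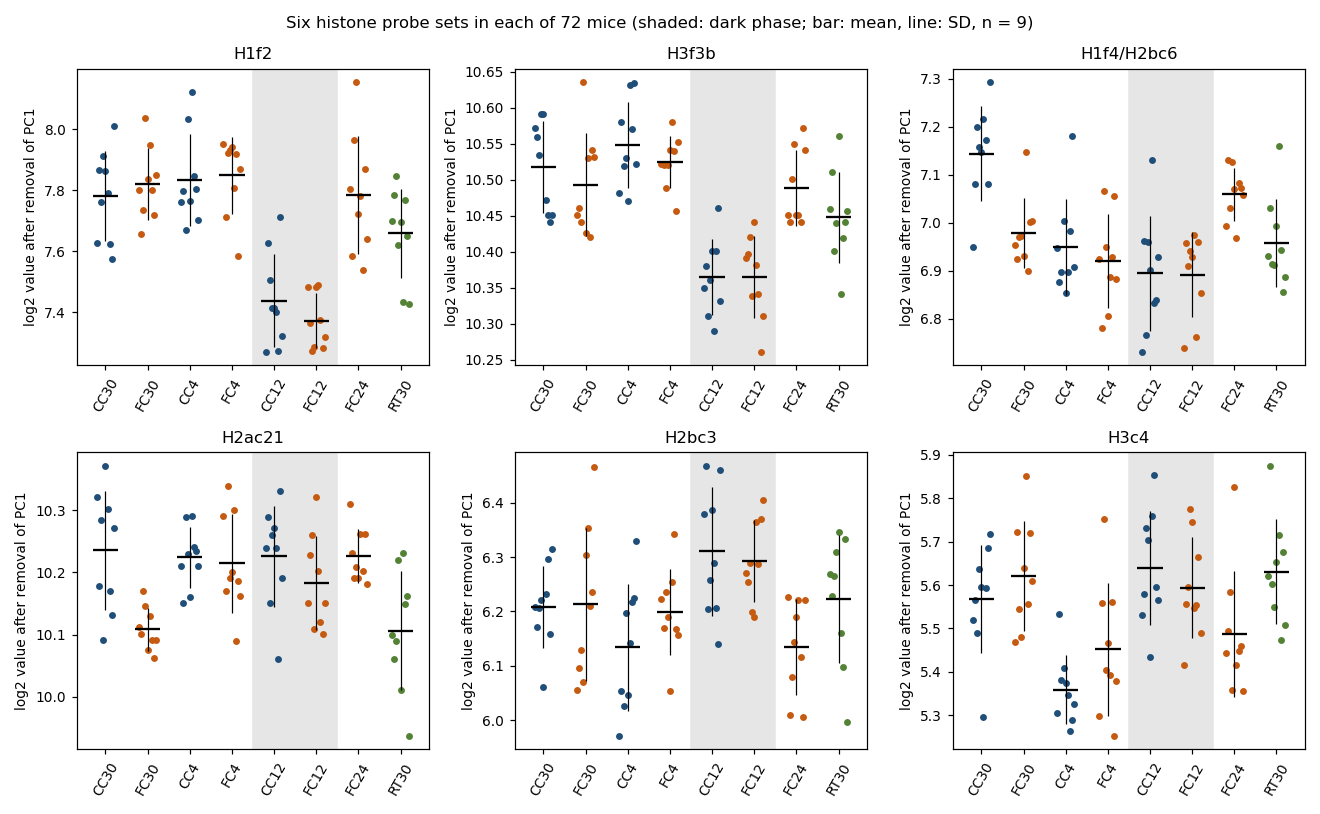
Log2 values after removal of the first principal component for 6 histone probe sets in each of 72 mice, by group, with the mean (bar) and SD (line) of 9 mice; groups collected in the dark are shaded. H1f2 and H3f3b are lowest in the shaded groups, H2ac21 is lowest in FC30 and RT30, and H3c4 is lowest in CC4.

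The other replication-dependent probe sets moved mainly between the 4 h controls and the 12 h controls. CC12 against CC4 gave 23 of 105 histone probe sets called, where 5.01% of all probe sets were called: 19 higher, against a background of 2.54%, and 4 lower, against 2.47%. All 19 that rose were replication-dependent, 11 of 20 for H2A, 6 of 19 for H2B and 2 of 13 for H3, and they held 18 distinct sets of values. H4 had 0 calls of 13, with 1 at an unadjusted p under 0.05. The 4 that fell were H1f2, H3f3b and 2 probe sets of the H2al1 genes (both -0.16, adjusted p 0.0523 and 0.0543), variants of H2A known from the testis. Of the 72 replication-dependent probe sets, 62 were higher in CC12, with a median difference of 0.087, while 22 of the 33 variants were lower, with a median of -0.040, beside a median of -0.0039 over all probe sets. The replication-dependent median was 0.043 over the probe sets with 1 symbol, and the variant median turned to 0.028. Without the arrays that stood apart 15 histone probe sets were called, with local false discovery rates 10, and with the replicate number as a block 9.

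Of the members that rose from CC4 to CC12, H3c15 had the greatest difference, 0.37 (SE 0.095, adjusted p 0.0389, limma), with 3.76, 4.00 and 4.48 in CC4 and 4.19, 4.38 and 4.72 in CC12, which overlapped, and a local false discovery rate of 0.231. H3c4 rose by 0.28 (SE 0.051, adjusted p 0.00339), from 5.26, 5.35 and 5.53 in CC4 to 5.43, 5.60 and 5.85 in CC12. H2ac4 rose by 0.24 (SE 0.057, adjusted p 0.0255), from 2.88, 3.00 and 3.38 to 3.14, 3.29 and 3.37, all among the dimmest 25% of probe sets, and had a local false discovery rate of 0.147. These 3 encode core histones of clusters 2 and 1, and in each all 9 CC12 mice were above the CC4 mean. A pair of probe sets with identical values, shared by H2bc11 and 9 other H2B genes, did not overlap between the groups, with 8.02, 8.11 and 8.20 in CC4 against 8.21, 8.28 and 8.38 in CC12 (0.17, SE 0.030, adjusted p 0.00292). H2aw, picked out after its values were seen, rose by 0.14 (SE 0.029, adjusted p 0.00959), from 9.73, 9.79 and 9.88 to 9.87, 9.93 and 10.03. H2bc3 rose by 0.18 (SE 0.055, adjusted p 0.094) but stayed called in 5 of 10 alternative settings. H3c4, H1f2, H3f3b and this H2bc11 pair were called in all 10 in CC12 against CC4.

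CC12 against CC30 shared the CC12 mice and gave a different list: 3 of 105 histone probe sets were called, H1f2, H3f3b and H1f4 with H2bc6, against 3.5% of all probe sets, with 0 higher (background 2.05%) and 3 lower (background 1.44%). None of the 19 probe sets higher than in CC4 was called against CC30, where H3c4 was 0.07 and H2bc3 was 0.10 higher. The median difference was 0.014 for the replication-dependent and -0.018 for the variant probe sets. Over the probe sets with 1 symbol the replication-dependent median turned to -0.0097. Without CC30 replicate 9, described below, the replication-dependent median was 0.045 and the variant median -0.015, and 4 members were called, 1 of them higher. CC4 against CC30 gave 0 histone calls, against 0.0731% of all probe sets (0.0253% higher and 0.0478% lower). Of the 72 replication-dependent probe sets, 65 were lower in CC4, with a median of -0.075. In that class 11 members had an unadjusted p under 0.05, as did 2209 of all 35556 probe sets. Without CC30 replicate 9 the replication-dependent median was -0.054, with 62 of 72 lower. H3c4 was -0.21 there (adjusted p 0.262, limma) and H1f4 with H2bc6 was -0.19 (adjusted p 0.295). All 20 H2A and all 13 H4 probe sets were lower in CC4 than in CC30, as were 12 of 13 for H3 and 15 of 19 for H2B.

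Trained mice gave arrays that none of the comparisons among controls had used. FC12 against FC4 gave 3 calls, H2ac4 higher, and H1f2 and H3f3b lower, against 4.22% of all probe sets (2.51% higher and 1.71% lower). H2ac4 stood at 2.84, 3.07 and 3.27 in FC4 and at 3.01, 3.34 and 3.53 in FC12, a difference of 0.24 (SE 0.066, adjusted p 0.0624, limma), which was not called with local false discovery rates (0.978). The replication-dependent median was 0.061, with 50 of 72 higher, but -0.0067 over the probe sets with 1 symbol. H2A probe sets were higher in 17 of 20, with 10 at an unadjusted p under 0.05, and H3 probe sets in 13 of 13. Of all 35556 probe sets, 5545 had such a p. FC12 against FC24 gave 4 calls, H2bc3 higher, and H1f2, H3f3b and H1f4 with H2bc6 lower, against 3.19% of all probe sets (2.11% higher and 1.08% lower). H2bc3 stood at 6.01, 6.14 and 6.23 in FC24 and at 6.19, 6.29 and 6.41 in FC12, a difference of 0.16 (SE 0.039, adjusted p 0.0442 in limma), which was not called with local false discovery rates (0.303). The replication-dependent median there was 0.035, and -0.0041 over the probe sets with 1 symbol. The sign of the replication-dependent median among trained mice thus rested on probe sets that several genes share, as it did among controls in CC12 against CC30.

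Read by the order of the group means alone, both dark groups lay above all 6 light groups for 20 of 72 replication-dependent probe sets (27.8%), against 10.1% of all probe sets, and below all 6 for 3 (4.17%), namely H1f2, H4c8 and H1f4 with H2bc6, against 8.99%. The 20 were 11 for H2A, 7 for H2B and 2 for H3, and 2 of the H2B ones hold identical values. In each of the 20, the gap between the nearest dark and light means was smaller than the SD within groups. So it was for H4c8 and for H1f4 with H2bc6, but not for H1f2. Probe sets with several symbols made up 16 of the 20 (of 39, 41%), and those with 1 symbol made up 4 (of 33, 12.1%). Among the 11 variants outside the germ line, 0 lay above and 4 lay below (36.4%): H3f3b, H1f10, and 1 probe set each of H3f3a and H2az1. Of these 4, H3f3b alone was called in a comparison of 2 groups. For the other 3 the gap between the nearest dark and light means was smaller than the SD within groups. For FC12, the dark phase and the 12 h since training cannot be told apart. CC12 mice were not trained, and the time from their handling to collection is not given in the sources used here. The difference between the dark effects of control mice (CC12 against CC30) and of trained mice (FC12 against FC24) was called for 0 of 105 members, against 0% of all probe sets (0% higher and 0% lower), with 0 members at an unadjusted p under 0.05.

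**Figure D3:**
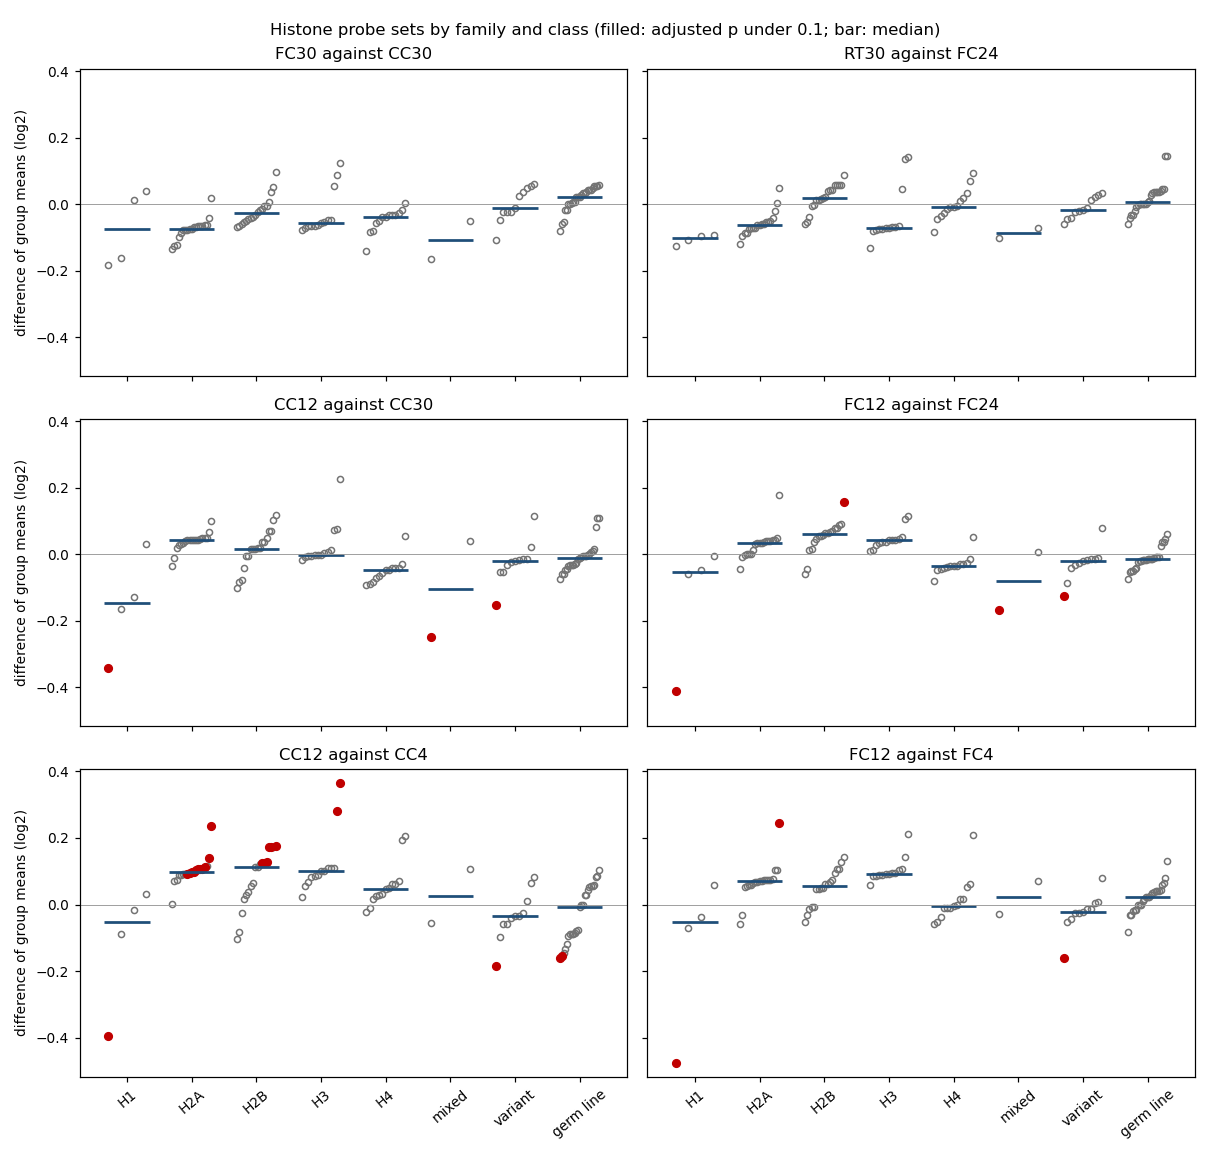
Differences of group means (log2) for the 105 histone probe sets in 6 comparisons, by family of the replication-dependent genes, then variants outside the germ line, and germ-line genes (H1f6, H2ac1 and H2bc1 among them); filled points were called and bars are medians. CC12 against CC4 holds 23 filled points, most of them H2A and H2B, whereas FC30 against CC30 and RT30 against FC24 hold 0.

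Training itself called no histone probe set. In FC30 against CC30, 0 of 105 members were called, against 0.256% of all probe sets (0.186% higher and 0.0703% lower), while 14 members of both classes had an unadjusted p under 0.05, as did 2405 of all 35556 probe sets. The replication-dependent probe sets were lower in 60 of 72, with a median of -0.054, and the variants were higher in 24 of 33, with a median of 0.023, beside -0.0017 over all probe sets. The 11 variants outside the germ line were higher in 5 and lower in 6, with a median of -0.013. Germ-line probe sets were higher in 20 of 25, so the variant median rested on them. For H2A 19 of 20 were lower, 8 with an unadjusted p under 0.05, and for H4 12 of 13 were lower, 1 with such a p, among probe sets that share genes. The difference between families was not tested. The array of CC30 replicate 9 had the highest mean of the replication-dependent probe sets, 0.204 above their mean over all arrays, and without it the replication-dependent median was -0.024, with 53 of 72 lower and again 0 called. The smallest p values were those of H1f4 with H2bc6, -0.17 (SE 0.041, p 0.000768, adjusted p 0.207, limma), and of H2ac21.

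H2ac21 is 1 of the genes that the study names, so its levels are given in full. By its local false discovery rates, the study reports this gene lower after acquisition and not after retrieval. It also reports a fall by qPCR in other mice, and less of the protein by mass spectrometry. Those qPCR and protein values are not part of the data used here. Its lowest, median and highest values were 10.09, 10.27 and 10.37 in CC30, 10.06, 10.10 and 10.17 in FC30, 10.18, 10.21 and 10.31 in FC24, and 9.94, 10.10 and 10.23 in RT30. In the later groups they were 10.15, 10.23 and 10.29 in CC4, 10.09, 10.19 and 10.34 in FC4, 10.06, 10.24 and 10.33 in CC12, and 10.10, 10.15 and 10.32 in FC12. FC30 and RT30 had the lowest means, and each overlapped its reference groups. The difference was -0.13 (SE 0.036, adjusted p 0.351, limma) for FC30 against CC30, with 9 of 9 FC30 mice below the CC30 mean, and -0.12 without CC30 replicate 9. It was -0.12 (p 0.00413, not called) for RT30 against FC24 and -0.13 (adjusted p 0.509) for RT30 against CC30, a comparison that shares CC30. FC4 and FC12 differed from their controls by -0.01 and -0.04. With the local false discovery rates computed here, H2ac21 was not called in FC30 against CC30 or in RT30 against CC30 either.

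The study also names Hist1h2af, Hist1h2ao and Hist2h2aa1, now H2ac10, H2ac23 and H2ac18, which here have no probe set of their own. With H2ac21, 15 probe sets held at least 1 of these genes. All 15 were lower in FC30 than in CC30, between -0.13 and -0.052, with 6 at an unadjusted p under 0.05 and 0 called (adjusted p 0.351 to 0.861, limma). All 15 were also lower in RT30 than in FC24, mice of other arrays, between -0.12 and -0.041, with 7 at an unadjusted p under 0.05 and 0 called. The median was -0.074 in FC30 against CC30 and -0.070 in RT30 against FC24. The same 15 of 15 were lower in CC4 than in CC30, both untrained, with a median of -0.053. They were also lower in FC24 against CC30 (-0.018), RT30 against CC30 (-0.086), RT30 against FC30 (-0.011) and FC12 against CC12 (-0.031). In FC4 against CC4, 10 were lower and 5 higher, with a median of -0.0045. Of these comparisons, RT30 against CC30 held 6 at an unadjusted p under 0.05 and the rest 0. Those against CC30 share its mice. The part of training or retrieval in this count was not tested. In CC12 against CC4 all 15 were higher, with a median of 0.097, and 8 were called, whereas in CC12 against CC30 the median was 0.043 and 0 were called, with 0 at an unadjusted p under 0.05. One example is the probe set of H2ac18, H2ac19 and H2ac20 with the lowest FC30 p of its kind, at 10.43, 10.62 and 10.67 in CC30, 10.41, 10.47 and 10.53 in FC30, 10.52, 10.54 and 10.65 in FC24, and 10.35, 10.43 and 10.62 in RT30 (-0.10 for FC30 against CC30, SE 0.036, adjusted p 0.60). These 15 probe sets share genes and are not 15 tests.

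After retrieval, RT30 against FC24 called 0 of 105 members, against 0.152% of all probe sets (0.121% higher and 0.0309% lower), with 48 of 72 replication-dependent probe sets lower and a median of -0.040, which was -0.0030 over those with 1 symbol. Of the members, 16 had an unadjusted p under 0.05, as did 2204 of all 35556 probe sets. RT30 against CC30 called 0 members, against 0.278% (0.186% higher and 0.0928% lower), with a replication-dependent median of -0.058 and a variant median of 0.029. Outside the germ line the variant median was 0.00090. In RT30 against CC30, 15 members had an unadjusted p under 0.05, as did 2456 of all 35556 probe sets. Without CC30 replicate 9 the replication-dependent median was -0.038. H1f4 with H2bc6 was -0.19 (adjusted p 0.15, limma) and the germ-line variant H2ab1 was 0.15 (adjusted p 0.283). RT30 against FC30 called 0 members, against 0% (0% higher and 0% lower), with 4 at an unadjusted p under 0.05, among them H1f2 at -0.16. Of all 35556 probe sets, 1386 had such a p.

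FC4 against CC4 called 0 members, against 0% of all probe sets (0% higher and 0% lower), with medians of 0.011 for replication-dependent and -0.024 for variant probe sets. The smallest p there belonged to 2 of the H2al1 probe sets, -0.16 and -0.15, each with an adjusted p of 0.922. FC12 against CC12 called 0 members, against 0% (0% higher and 0% lower), with medians of -0.011 and 0.015. FC24 against CC30 called 0 members, against 0% (0% higher and 0% lower), with medians of -0.023 and 0.020. Without CC30 replicate 9 the replication-dependent median was -0.0047, with 41 of 72 lower. For variants outside the germ line the medians were -0.0053 in FC4 against CC4, -6.7e-05 in FC12 against CC12 and 0.0084 in FC24 against CC30. Of the members, 2 had an unadjusted p under 0.05 in FC12 against CC12, 1 in FC24 against CC30 and 5 in FC4 against CC4. Of all 35556 probe sets, 1442, 1534 and 1902 had such a p there, in that order. The difference between the effects of FC30 and FC4 called 0 members, against 0.045% (0.0422% higher and 0.00281% lower), and between those of FC30 and FC12 also 0, against 0.0872% (0.0675% higher and 0.0197% lower). At an unadjusted p under 0.05 these held 12 and 7 of the 105 members, beside 2533 and 1902 of all 35556 probe sets. The difference between the effect of RT30 against FC24 and that of FC30 against CC30 called 0 members, against 0% (0% higher and 0% lower). At an unadjusted p under 0.05 it held 1 member, beside 1205 of all 35556 probe sets.

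**Figure D4:**
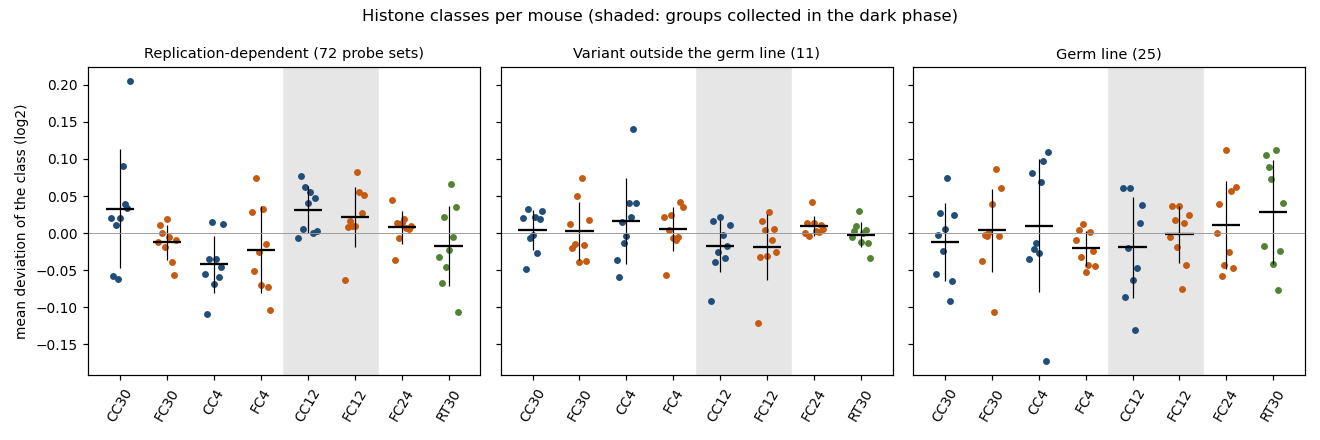
Mean deviation (log2) of each class's probe sets from their means over all arrays, 1 point for each mouse, with the mean (bar) and SD (line) of 9 mice and the dark-phase groups shaded; the replication-dependent and the germ-line panels share 3 probe sets. The replication-dependent mean is highest in CC30 and CC12 and lowest in CC4, with CC30 replicate 9 at 0.204, and the groups overlap in every class.

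The replication-dependent class was followed in single mice. In CC12 against CC4 its median difference of 0.087 stood beside an SD of single mice of 0.035. The mean of the 72 replication-dependent probe sets had a median of 0.020 in CC30 (from -0.062 to 0.204), -0.0092 in FC30 (-0.056 to 0.018), -0.046 in CC4 (-0.110 to 0.015), -0.026 in FC4 (-0.104 to 0.075), 0.041 in CC12 (-0.0072 to 0.077), 0.017 in FC12 (-0.063 to 0.082), 0.0093 in FC24 (-0.037 to 0.045) and -0.022 in RT30 (-0.107 to 0.066). All groups overlapped. Within groups, the deviations of probe sets went together most among the H3 probe sets, with a median Pearson r of 0.934 over 13 probe sets and 72 arrays, and among the 5 H2A probe sets of cluster 2, with 0.885. For H2A in all it was 0.518, for H4 0.366 and for H2B 0.195. Probe sets with several symbols had 0.453 and those with 1 symbol 0.0586, and the 11 variants outside the germ line had 0.098. Probe sets of 1 family share sequence, and all share the arrays.

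Of the variants outside the germ line, H3f3b, H2aj and H2ax were those called by the F-test. Over the 8 groups, the highest and lowest group means of H2az1 and H2az2, which encode H2A.Z, differed by 0.037 to 0.048, and those of the 4 H3f3a probe sets by 0.075 to 0.10. H1f10, a linker histone variant, spanned 0.12, and H3f3b 0.18. H2aj, an H2A variant close to canonical H2A, and H2ax, the H2A that is phosphorylated at DNA breaks, had adjusted p values of 0.0286 and 0.0863 in that test but were called in no comparison of 2 groups. H2aj ran from 6.45 through 6.59 to 6.71 in FC30 and from 6.62 through 6.69 to 6.83 in CC30, a difference of -0.11. H2ax ran from 7.35 through 7.51 to 7.59 in CC12 and from 7.22 through 7.38 to 7.48 in CC30, a difference of 0.11. The germ-line genes gave 2 calls in all, the H2al1 probe sets of CC12 against CC4, and neither was called without the arrays that stood apart.

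Genes that act on histone messages and proteins were set beside the members. Of 20 factors of histone transcription and 3′ end processing, 3 rose in CC12 against CC30 (Casp8ap2, which activates histone genes, by 0.17; Ncbp1 of the cap-binding complex by 0.10; Upf1, a helicase of histone message decay, by 0.10), 2 in CC12 against CC4 (Eri1, the exonuclease that trims the stem-loop, by 0.22; Upf1 by 0.16), 4 in FC12 against FC24 (Casp8ap2, Lsm11, Ncbp1 and Eri1) and 4 in FC12 against FC4 (Casp8ap2, Srrt, Eri1 and Upf1), and 0 fell in any of these. The stem-loop binding protein Slbp and the histone gene activator Npat were not called, at 0.07 and -0.02 in CC12 against CC4. Of 30 chaperones and assembly factors, Nasp rose by 0.12 in CC12 against CC30, Ubn1 rose by 0.13 and Set fell by 0.19 in CC12 against CC4, Chaf1a and Nap1l5 fell by 0.15 and 0.14 in FC12 against FC24, and Asf1a rose by 0.14 in FC12 against FC4. The 3 histones outside the naming rule (Macroh2a1, Macroh2a2 and Cenpa) were called in none of the 4. Over these lists and the genes of dividing cells described next, the calls numbered 6 in CC12 against CC30, 5 in CC12 against CC4, 9 in FC12 against FC24 and 7 in FC12 against FC4, which became 0, 0, 1 and 0 with local false discovery rates. They reached 11 in CC12 against CC4 with 2 components removed and 11 in FC12 against FC4 without the dimmest 25% of probe sets. The shares of all probe sets called in these comparisons are those given above.

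Of 30 genes of dividing cells, the cyclins Ccnb2 and Ccne1 rose in CC12 against CC30 (0.26 and 0.12), in FC12 against FC24 (0.21 and 0.18) and in FC12 against FC4 (0.17 and 0.13), Ccnb2 rose in CC12 against CC4 (0.31), and Mcm2 fell in FC12 against FC24 (-0.14). Mki67 and Rrm2 were called in none. The mean level of the 30 genes in single mice ran from 5.23 to 5.28 in CC12, from 5.21 to 5.30 in CC30 and from 5.22 to 5.35 in CC4. These 3 ranges overlap. Markers of choroid plexus, which can adhere to a dissected hippocampus, differed widely between mice, with the mean of 9 genes from 5.40 to 6.88 in CC30, 5.66 to 7.25 in FC30, 5.61 to 7.36 in CC4 and 5.65 to 7.90 in CC12, none of them called. Their median difference was 0.35 in FC30 against CC30, 0.40 in CC12 against CC30 and 0.39 in CC4 against CC30, but 0.074 in CC12 against CC4, -0.13 in FC12 against FC24 and -0.25 in RT30 against FC24. The part of choroid plexus in the histone differences was not tested.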

How the data were processed

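RNA of 72 hippocampi was labelled and hybridised to whole-transcript mouse arrays, and the authors deposited log2 values, made with RMA (background correction, quantile normalization and summary) in Affymetrix Power Tools from the mean of 2 scans. Quantile normalization gives all arrays 1 distribution, so a shift of most genes cannot be seen, and probe sets do not separate near-identical histone copies. The genome build behind the probe sets is not given in the sources used here. Gene symbols came from the annotation of the array and were updated to RefSeq through Entrez numbers: 21219 probe sets had 1 symbol, 1880 several and 12457 none, and H1f0 was not analysed here.

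The first principal component of probe-centred values was subtracted. Each of 12 comparisons was fitted with limma 3.58.1 (R 4.3.3) to its 18 arrays, 4 differences of effects with an interaction term, and the 8 groups with a moderated F-test, all two-sided, with Benjamini-Hochberg adjustment over 35556 probe sets and a threshold of 0.1. Replicates are separate mice. Precision is limited by the 18 arrays of a comparison, in which members had a median SE of 0.041 to 0.055. Figures used Python 3.11.15 with matplotlib 3.10.9, numpy 2.4.6 and pandas 2.3.3. The fits were tested on simulated data.

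Alternatives were no or 2 components removed, a component of the residuals within groups, a joint fit of 8 groups, the methods' t-statistics (adjusted as above, or by local false discovery rate), the dimmest 25% left out, an intensity trend, no arrays apart and a replicate block, and, after the data were seen, no CC30 replicate 9. Members, gene lists (10 sets of cell type markers, of which choroid plexus is reported, dividing cells, histone processing factors, chaperones, other histones, activity-induced genes) and tests were chosen with earlier results of these data known. Named were the called members of each comparison or, above 12, the 6 greatest in each direction, the 2 smallest p where none was called, variants with 1 symbol, and probe sets with a gene the study names; H2aw and H4c8 were added after their values were seen.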

Additional observations from a re-analysis of the deposited data

Results flagged for a closer look

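Of 168 sets of 9 mice tested for a highest or lowest value apart from the rest (Dixon's test of the gap over the range), 13 held one, where chance alone gives about 5% of sets. H1f4 with H2bc6 was apart at 7.15 in FC30 replicate 6 and at 7.18 in CC4 replicate 8, the array that also stood apart on the second principal component. H3c15 was apart at 4.98 in FC30 replicate 1 and at 4.59 in FC24 replicate 9, H3c4 at 5.83 in FC24 replicate 5 and H2ac4 at 3.38 in CC4 replicate 9. FC24 replicate 1 was the highest of its group in 4 shared H2A probe sets, at 10.9 (with H2ac10 and 7 others), 11.1 (with H2ac12 and 4 others), 10.8 (with H2ac10 and 8 others) and 10.9 (with H2ac10 and 9 others), which are nearly 1 measurement. The mean deviation of the 11 variants outside the germ line was apart at 0.141 in CC4 replicate 8, at -0.121 in FC12 replicate 1 and at 0.0415 in FC24 replicate 4.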

How the results depend on the processing

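With local false discovery rates, histone calls went from 3 to 0 in CC12 against CC30, from 23 to 10 in CC12 against CC4, from 4 to 0 in FC12 against FC24 and from 3 to 0 in FC12 against FC4, where no probe set of the array was called. Removing a component of the residuals within groups gave 1 call in FC30 against CC30 and 6 in FC12 against FC4. Removing 2 components gave 1 call in CC4 against CC30 and 5 in FC12 against FC4, and fitting all 8 groups together gave 1 in RT30 against CC30 and 2 in CC4 against CC30. The t-statistics of the methods, adjusted after Benjamini and Hochberg, gave 5 calls in FC12 against FC4, and leaving out the arrays apart gave 15 in CC12 against CC4. Over the probe sets with 1 symbol, the replication-dependent median was 0.043 in CC12 against CC4, -0.0041 in FC12 against FC24 and -0.0067 in FC12 against FC4, and the variant median 0.028 in CC12 against CC4 and -0.013 in FC12 against FC4. The other 146 counts stayed within 1.5 times, the other 125 medians within 1 SD of single mice, and no named probe set changed sign. Samples share a replicate number only: same-number deviations correlated at a median of -0.0096 to 0.089 over the comparisons, and the replicate block lowered the calls from 23 to 9 in CC12 against CC4 and from 4 to 2 in FC12 against FC24, where H3f3b (adjusted p 0.164, limma) and H2bc3 (0.101) were not called, nor were H3c15 in CC12 against CC4 (0.107) and H2ac4 in FC12 against FC4 (0.133). With the block, the list genes called were 1 in CC12 against CC30, 3 in CC12 against CC4 and 5 in FC12 against FC24. The cause of these shifts was not tested. H1f3, H2ac4, H2ac8 and H3c7, and germ-line members such as H1f6, H2bc1 and H2bl1, are dim, where signal over background limits any difference.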
